A study of Mus musculus with 6 samples.

Results

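Egr1 and Egr2, transcription factors of the early growth response family, and Nab1 and Nab2, the co-repressors that bind them, were described in the visual cortex of adult mice after the loss of one eye. The members were all probe sets that the platform annotation names Egr1, Egr2, Nab1 or Nab2, which gave 4 of the 8252 genes with a probe set of their own and 5 of the 12488 probe sets. They were chosen with their difference between the groups already known, so that difference is a description below, and where a threshold call on it is counted the count supports nothing further. Wild-type (C57Bl6) mice underwent monocular enucleation, the removal of an eye, at postnatal day 100 and were killed 4 days later. In mice most optic fibres cross the midline, so the cortex contralateral to the removed eye was the deprived one and the ipsilateral cortex the non-deprived one. The study set 3 arrays of deprived visual cortex against 3 of non-deprived. Both groups came from enucleated animals, so the non-deprived cortex belonged to mice that had also lost an eye, and cortex of mice with both eyes was not analysed here. The labels name 4 mice and the design speaks of pooled samples, without giving the animals behind each array, so the spread between arrays may be technical.

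Egr1 and Egr2 are zinc-finger proteins that bind GC-rich DNA. Their genes are immediate-early genes: in neurons, synaptic activity raises calcium and MAP kinase signalling, which acts on SRF with its TCF partners and on CREB at the promoters, and the transcripts appear within minutes and are short-lived. Egr1, also called zif268, is widely used as a marker of light-driven activity in visual cortex. Nab1 and Nab2 carry no DNA-binding domain and are brought to DNA by Egr proteins, where they recruit the NuRD chromatin-remodelling complex and limit Egr-driven transcription. Nab2 is itself a target of Egr proteins, which closes a negative feedback loop.

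Arrays were alike in level, with median signals of 202.8 to 219.7, and neuronal transcripts were bright on all of them. Summed signal of 5 measured general neuron markers was 33963 to 36953 on deprived and 35618 to 37533 on non-deprived arrays. Non-deprived replicate 3 stood apart in a control, with a 3′ 18S ribosomal RNA signal of 2689 against 661 to 981 on the other 5 arrays. Among single probe sets, 752 of the 7453 tested did not overlap between groups, counting both directions. Of the 13 cell type and region marker lists, the summed signal of 1, the interneuron list, did not overlap between groups. Its 6 markers summed to 12297 to 13628 on deprived and 15584 to 15875 on non-deprived arrays, with 5 of 6 lower in mean. None of those markers passed the threshold used here, an adjusted p under 0.05 by limma over all 7453 probe sets tested. By unadjusted p under 0.05 there were 3, where 5.09% of all tested probe sets had one, and the smallest adjusted p was 0.26, for Sst (somatostatin), whose log2 change was -0.39 (SE 0.08). Npy had -0.42 (SE 0.11) and Pvalb -0.25 (SE 0.11) on its brightest probe set, but -0.01 (SE 0.28) on its other one. Gad1 had -0.13 (SE 0.09), Gad2 -0.14 (SE 0.31) and Vip 0.19 (SE 0.20). Whether these markers track interneuron content, and what part such content has in the results below, was not tested.

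Both Egr transcripts were far lower in deprived cortex, while the co-repressors differed less. Deprived cortex held 45.5% of the non-deprived mean signal for Egr1, 32.9% for Egr2, 73.0% for Nab2 and 82.4% for Nab1. Of the 4 member probe sets bright enough to be tested, Egr1 and Egr2 were past the threshold, where 0.161% of all tested probe sets were called lower (12 of 7453). The arrays of the groups did not overlap for 3 of the 4, Egr1, Egr2 and Nab2, where 4.59% of tested probe sets were lower without overlap. Because the members were chosen on this contrast, neither count is evidence beyond their values. In dissected tissue, fewer cells of a type and less RNA per cell cannot be told apart.

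**Figure D1:**
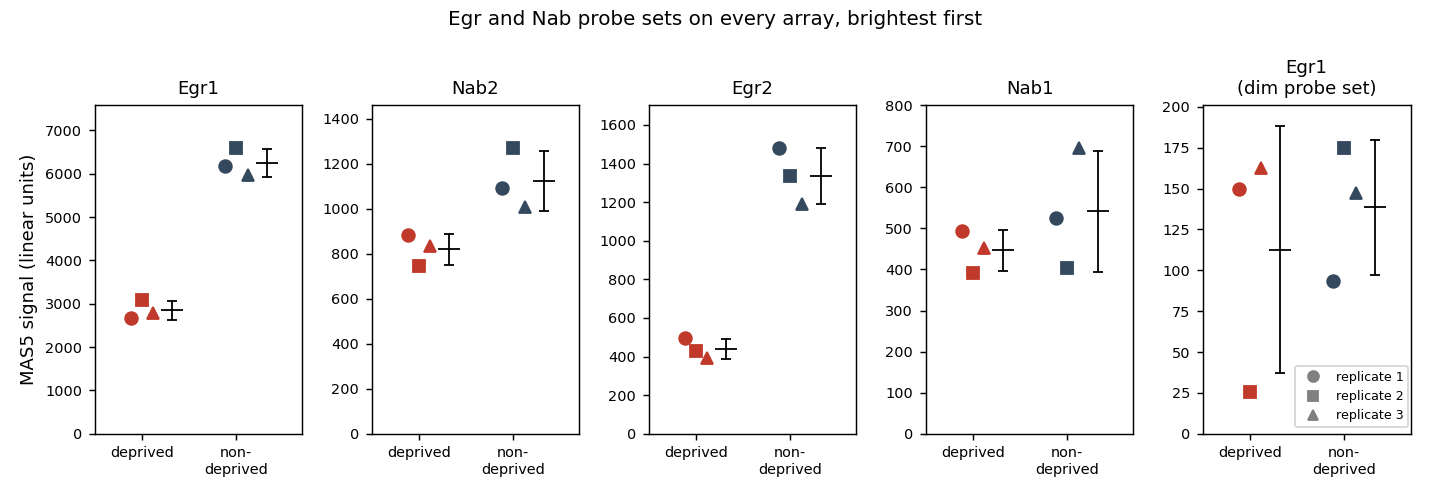
MAS5 signal (linear units, axes from 0) of the 5 Egr and Nab probe sets on each of the 3 deprived and 3 non-deprived arrays, with the group mean and SD as black bars. Egr1 and Egr2 lie well apart between the groups, Nab2 lies apart by a smaller gap, and Nab1 and the dim Egr1 probe set overlap.

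Egr1, the activity-regulated factor best known from visual cortex, had the brightest of the 5 probe sets (98579_at). Its signal was 2662, 3077 and 2798 on the deprived arrays (replicates 1, 2 and 3), against 6174, 6604 and 5965 on the non-deprived arrays. The highest deprived array therefore lay 2888 signal units under the lowest non-deprived array. Means were 2846 ± 211 in deprived and 6248 ± 326 in non-deprived cortex (SD, n = 3 each), and the log2 change, deprived minus non-deprived on log2(signal + 16), was -1.13 (SE 0.09). Arrays of a group differed little from one another for Egr1: the coefficient of variation was 7.42% among deprived and 5.22% among non-deprived arrays. Of tested probe sets, 9.26% had a smaller residual SD. That comparison was not limited to probe sets of like brightness, and only 3.96% were brighter than this one.

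A second Egr1 probe set (161802_i_at, a type with an incomplete set of probes) was dim, with a mean of 126 units, under the 134.7 asked of a tested probe set, and was not shown to be above background. It read 150.0, 25.7 and 162 on the deprived arrays, against 93.6, 175 and 147 on the non-deprived arrays. The groups overlapped, and the lowest value of all was that of deprived replicate 2. Its log2 change of -0.49 (SE 0.56) turned to 0.19 without that array, so this probe set gave no direction for Egr1.

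Egr2, also called Krox20, is the relative of Egr1 that patterns the hindbrain and drives myelination by Schwann cells, and in cortex is induced by strong neuronal activity. Its probe set (102661_at) read 494, 430.1 and 394 on the deprived arrays, against 1483, 1335 and 1189 on the non-deprived arrays. Every deprived array lay at least 694 units under every non-deprived array. Means were 439.5 ± 50.6 in deprived and 1335 ± 147 in non-deprived cortex (SD, n = 3 each), a log2 change of -1.57 (SE 0.14). Ranked by log2 change from the lowest among the 7453 tested probe sets, Egr2 stood at place 4 and Egr1 at place 17. As a description of brightness, 29.0% of tested probe sets were brighter than that of Egr2 and 3.96% brighter than that of Egr1; brightness does not order the amounts of different transcripts.

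Nab2, the co-repressor induced by Egr proteins, differed in the same direction by a smaller amount. Its probe set (100962_at) read 883, 745 and 834 on the deprived arrays, against 1092, 1273 and 1009 on the non-deprived arrays. The groups did not overlap, but the gap between the highest deprived and the lowest non-deprived array was 126 units. Means were 821 ± 69.7 in deprived and 1125 ± 135 in non-deprived cortex (SD, n = 3 each), a log2 change of -0.44 (SE 0.13). It held place 271 among the tested probe sets ranked from the lowest log2 change.

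Nab1, the co-repressor that many cell types express steadily, overlapped between the groups. Its probe set (94408_at) read 493.1, 391.9 and 453.3 on the deprived arrays, against 525.3, 402.5 and 696.5 on the non-deprived arrays. The groups overlapped, since the non-deprived array of replicate 2 was lower than deprived replicates 1 and 3. Means were 446 ± 51.0 in deprived and 541 ± 148 in non-deprived cortex (SD, n = 3 each), with a log2 change of -0.24 (SE 0.20, 95% interval -0.70 to 0.21). The size depended on single non-deprived arrays: the log2 change was -0.05 with non-deprived replicate 3 left out, which had the strong 18S control signal and the highest Nab1 value, and -0.43 without non-deprived replicate 2. It was -0.16 without deprived replicate 2. The interval leaves room for a log2 change as large as that of Nab2.

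**Figure D2:**
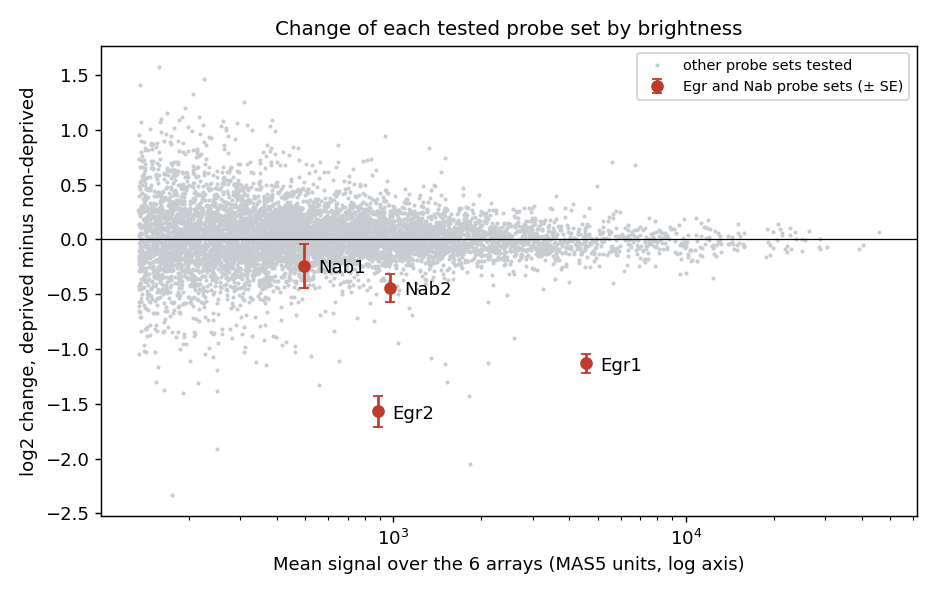
Log2 change (deprived minus non-deprived) of each tested probe set against its mean signal over the 6 arrays (log axis), with the 4 tested Egr and Nab probe sets in red with SE bars. Egr1 (-1.13) and Egr2 (-1.57) lie far under the bulk of probe sets of like brightness, Nab2 (-0.44) near its lower edge and Nab1 (-0.24) inside it.

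Not all members changed by the same amount: Nab2 differed less than Egr1 and Egr2, and Nab1 less than Egr1. This shows in log2 ratios taken within each array, where an error of scaling between arrays nearly cancels (the 16 added to each signal keeps it from cancelling in full). Egr2 minus Egr1 was -2.39, -2.79 and -2.78 on deprived arrays, against -2.05, -2.29 and -2.31 on non-deprived arrays. The ratio was 0.44 lower in deprived cortex on average, and the groups were separated only narrowly, at -2.39 against -2.31. Nab2 minus Egr1 was -1.57, -2.02 and -1.73 on deprived arrays, against -2.48, -2.36 and -2.54 on non-deprived arrays. That ratio was 0.69 higher in deprived cortex, without overlap. Nab2 minus Egr2 was 0.82, 0.77 and 1.05 on deprived arrays, against -0.44, -0.07 and -0.23 on non-deprived arrays, a difference of 1.12. The signal of the co-repressor Nab2 relative to that of either Egr factor was thus higher on every deprived array than on any non-deprived array. Nab1 minus Egr1 was likewise 0.89 higher in deprived cortex without overlap. Nab1 minus Nab2 averaged -0.86 ± 0.04 in deprived and -1.06 ± 0.55 in non-deprived cortex (SD, n = 3 each), with overlap. These ratios rest on the contrast that chose the members and compare changes, not amounts, of different transcripts.

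**Figure D3:**
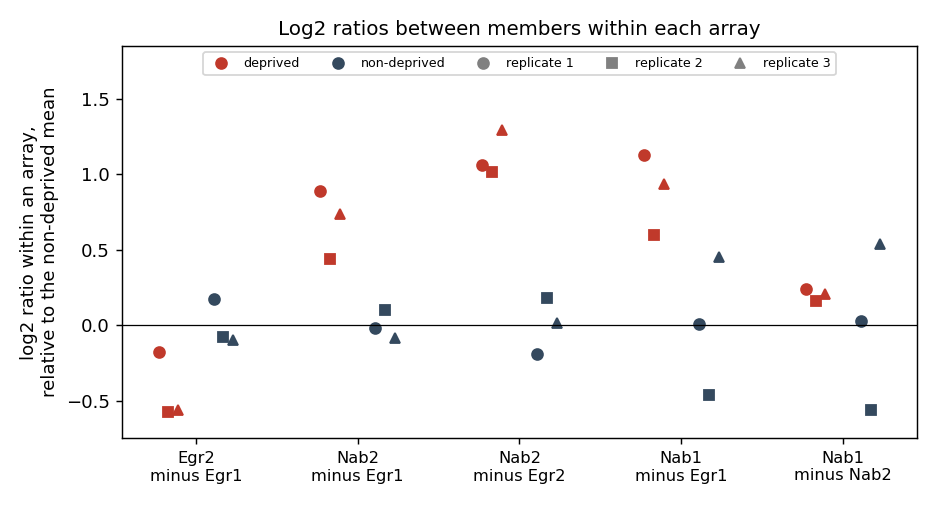
Log2 ratio of pairs of members within each array, drawn relative to the mean of the 3 non-deprived arrays, for deprived (red) and non-deprived (dark) arrays; symbols mark replicates. Nab2 and Nab1 relative to Egr1, and Nab2 relative to Egr2, are higher on all deprived arrays, Egr2 relative to Egr1 is lower, and Nab1 relative to Nab2 overlaps.

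Across the 6 arrays the log2 signals of Egr1 and Egr2 correlated at r = 0.98, those of Egr2 and Nab2 at 0.90 and those of Egr1 and Nab2 at 0.87, while Nab1 correlated at 0.35 with Egr1, 0.41 with Egr2 and 0.18 with Nab2. The 6 points form 2 groups of 3 arrays, so these values mainly restate the group difference. Once each group's mean was taken out, r was -0.12 for Egr1 with Egr2, 0.40 for Egr2 with Nab2 and -0.01 for Egr1 with Nab2. For Nab1 it was -0.84 with Egr1, -0.22 with Egr2 and -0.50 with Nab2. Within the groups, the order of the arrays by Egr1 signal was not their order by Egr2 signal. Deprived replicate 1 was the lowest of its group in Egr1 and the highest in Egr2. Among non-deprived arrays the orders agreed in part: replicate 3 was the lowest in both, and the other arrays changed places.

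By the same measure, the probe sets most like that of Egr1 over the 6 arrays belonged to Junb, a partner of Fos in AP-1 (r = 0.99), the orphan nuclear receptor Nr4a1 (0.98), Phlda1 (0.98), the MAP kinase phosphatase Dusp6 (0.98) and Egr2 (0.98). Of 6715 candidates with a single gene name, 21 had r over 0.95 with Egr1, 13 with Egr2, 10 with Nab2 and 7 with Nab1. Unrelated probe sets can reach such r over 6 arrays among this many candidates, and no comparison with chance was made. The probe sets most like that of Egr2 belonged to the immediate-early gene Ier2 (0.99), Serac1 (0.99), Nr4a1 (0.99), Dusp6 (0.98) and Ufm1 (0.98). The measure compares shape and not size: Phlda1 read 289.7 ± 12.03 in deprived and 373 ± 7.55 in non-deprived cortex, and Serac1 220.1 ± 2.44 and 243 ± 4.18 (SD, n = 3 each), smaller differences than those of the Egr genes. Ufm1 also differed less, with a log2 change of -0.34 (SE 0.15). Differences near that of Egr1 in size were not particular to the Egr genes. Junb had a log2 change of -1.13 (SE 0.10), Nr4a1 -1.30 (SE 0.10), Dusp6 -1.09 (SE 0.12) and Ier2 -1.07 (SE 0.15). Probe sets most like that of Nab2 were Entpd2 (0.99), an ectonucleotidase, Manf (0.98), a secreted factor of the endoplasmic reticulum stress response, the granins Scg2 (0.98) and Scg3 (0.98), and Pick1 (0.96). None of these 5 was among those most like Egr1 or Egr2. Those most like Nab1, namely Tinf2, Shkbp1, Nedd4l, Scarb2 and Aldh7a1, had r of 0.96 to 0.98 and log2 changes between -0.21 and -0.07.

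Promoter sequences are shown for the members with an entry in the RefSeq table (build GRCm38.p6; 3 of 4 genes), since the pathway from activity to Egr transcription and the feedback from Egr proteins to Nab genes both act through promoter sites. Each run holds the 250 bases before a transcription start, 5′ to 3′ on the gene's strand, with matches in capitals. The motifs searched on both strands were the CArG box bound by SRF, the CRE core TGACG bound by CREB, and the Egr site GCGNGGGCG; no matches of different motifs overlapped in these windows.
Egr2, chr10:67537619-67537868, + strand: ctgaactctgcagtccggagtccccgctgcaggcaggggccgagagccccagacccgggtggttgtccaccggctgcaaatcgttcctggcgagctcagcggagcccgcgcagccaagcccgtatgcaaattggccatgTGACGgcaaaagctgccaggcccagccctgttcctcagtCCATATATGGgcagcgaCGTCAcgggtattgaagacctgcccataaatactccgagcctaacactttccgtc
Nab2, chr10:127666704-127666953, - strand: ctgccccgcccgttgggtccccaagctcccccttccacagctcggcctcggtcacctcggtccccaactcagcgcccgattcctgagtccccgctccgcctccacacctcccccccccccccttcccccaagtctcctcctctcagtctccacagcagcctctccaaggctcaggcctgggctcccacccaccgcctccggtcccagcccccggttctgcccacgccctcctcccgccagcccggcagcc
Nab1, chr1:52500449-52500698, - strand: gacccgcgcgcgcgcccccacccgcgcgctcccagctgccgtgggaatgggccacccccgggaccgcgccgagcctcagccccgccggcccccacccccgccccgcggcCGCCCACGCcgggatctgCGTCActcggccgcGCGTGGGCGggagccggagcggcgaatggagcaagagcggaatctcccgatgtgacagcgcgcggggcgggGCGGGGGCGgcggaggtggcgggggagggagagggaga

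The Egr2 window held 1 CArG box, 72 to 63 bases before the start, with a CRE core on each side of it. Of all 32851 promoter windows of that length, 1.47% held a CArG box and 17.8% a CRE core. RefSeq lists 5 starts for Egr2, and 4 of their windows held a CArG box. Of the 4, 3 overlap and share the same box and the same 2 CRE cores, and the window printed is 1 of these 3. The other window with a CArG box held no CRE core, and the remaining window held none of the 3 motifs. The Nab1 window held 3 Egr sites and 1 CRE core. An Egr site occurred in 4.70% of all windows, but the Nab1 window is 80.8% G and C, and among the 405 windows with at least 80% G and C it occurred in 44.0%, and at least 3 of them in 4.94%. In the Nab2 window none of the 3 motifs was found, which says only that these letters are not in this window. These matches are descriptions of sequence, and no binding was measured.

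No regulator, partner or reported target of the Egr and Nab members passed the threshold. Over the lists of regulators, partners and targets, 53 of 84 genes had a probe set of their own, and 41 were measured brightly enough to be tested. None of the 41 passed by limma in either direction (smallest adjusted p = 0.85), where 0.174% of all tested probe sets passed. An unadjusted p under 0.05 was seen for 2 of the 41, where 5.09% of all tested probe sets had one. Their median log2 change was 0.01, as was the median of all tested probe sets. Egr3, Egr4, Srf, Mapk3, Arc and Syn1 were not analysed here.

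Among the SRF, TCF and CREB regulators, through which activity reaches the Egr promoters, 7 genes were tested, 4 lower and 3 higher in mean, with a median log2 change of -0.06. The SRF coactivator gene Mrtfa had a log2 change of -0.21 (SE 0.13), the MAP kinase kinase gene Map2k2 0.23 (SE 0.18) and Camk4, a calcium-dependent kinase that phosphorylates CREB, -0.35 (SE 0.34). Elk1, a TCF that MAP kinases phosphorylate, read 611 ± 71.9 in deprived and 601 ± 124 in non-deprived cortex (SD, n = 3 each; 95% interval of the log2 change -0.36 to 0.44). Crebbp, the acetyltransferase that CREB recruits, had 0.14 (SE 0.19). Single arrays moved several of these values: Camk4 had -0.03 when non-deprived replicate 3 was dropped and -0.52 when non-deprived replicate 2 was. Crebbp ranged from 0.01 to 0.32, Map2k2 from 0.15 to 0.39 and Elk1 from -0.14 to 0.14 over the fits that each leave out 1 array. These transcripts do not report the phosphorylation that regulates their proteins.

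The partners of the Nab and Egr proteins, NuRD subunits and others together, gave 17 tested genes, 7 lower and 10 higher in mean, with a median of 0.01. That median covers the mixed list and was not taken over the NuRD subunits alone. Mbd3, a core NuRD subunit, read 3077 ± 27.0 in deprived and 2519 ± 200.4 in non-deprived cortex (SD, n = 3 each), or 0.29 higher on the log2 scale (SE 0.09), and missed the threshold (limma adjusted p = 0.85). Sin3a, a scaffold of a separate histone deacetylase complex, had 0.32 (SE 0.13). Gatad2a, a NuRD subunit, had 0.43 (SE 0.19) on its brightest probe set, but -0.06 (SE 0.23) and -0.14 (SE 0.23) on its other tested ones. Chd4, the NuRD ATPase that Nab2 contacts, had -0.14 (SE 0.13) on a probe set that can also match related transcripts, and ranged from -0.25 to -0.04 over the fits that each leave out 1 array.

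Of the 11 tested genes reported elsewhere as Egr targets outside Schwann cells, 6 were lower and 5 higher in mean, with a median log2 change of 0.00 and a range of -0.41 to 0.20. The lowest was Pdgfb, a growth factor chain, at 186 ± 14.4 in deprived and 252 ± 20.6 in non-deprived cortex (SD, n = 3 each; log2 change -0.41, SE 0.22). Acetylcholinesterase (Ache) had -0.17 (SE 0.21) and fibronectin (Fn1) 0.20 (SE 0.18). Ache had -0.44 (SE 0.13) when non-deprived replicate 3 was dropped and -0.02 when non-deprived replicate 1 was, and Fn1 had 0.01 when non-deprived replicate 1 was. Among targets with a role in neurons, Syn2, a synaptic vesicle phosphoprotein, had 0.02 (95% interval -0.33 to 0.37), and Cdk5r1, the p35 activator of Cdk5, 0.00 (95% interval -0.36 to 0.35). A list drawn up as Egr2 targets of Schwann cells had a median of 0.05 over 6 genes. It held Sox10, which is not claimed here to be a target of Egr2. Mag and Mbp were also on the oligodendrocyte marker list. Sox10 had 0.24 (SE 0.11), Mag 0.13 (SE 0.15) and Mbp 0.06 (SE 0.10) on their brightest probe sets, none past the threshold. The other tested Mbp probe set had -0.19 (SE 0.14), so Mbp had no single direction, and Mag ranged from 0.05 to 0.25 with 1 array left out.

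**Figure D4:**
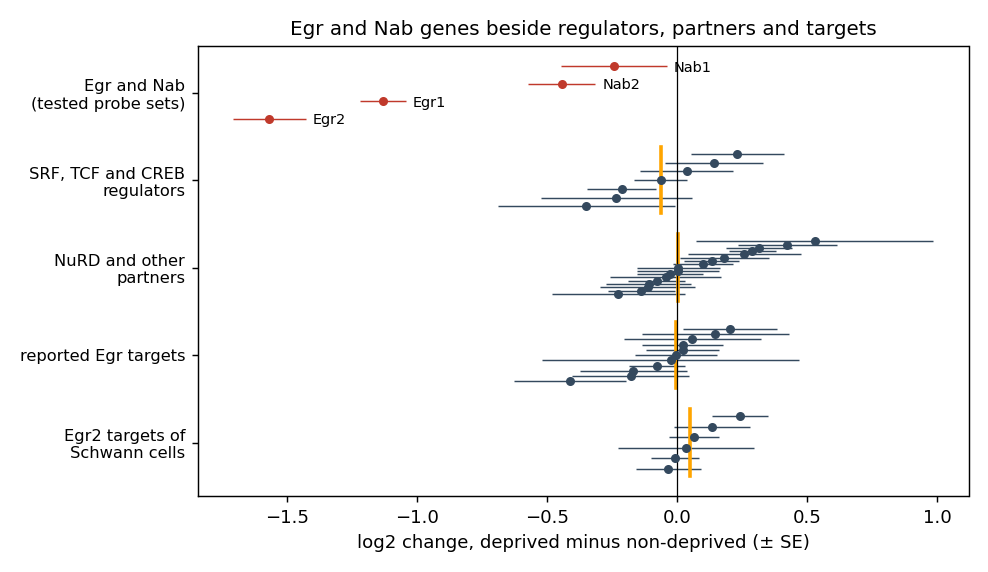
Log2 change (deprived minus non-deprived, with SE bars) of the 4 tested Egr and Nab probe sets in red and of the tested genes of 4 lists in dark, each list's median as an orange line. List medians lie between -0.06 and 0.05 in this fit, and Egr1 and Egr2 lie lower than every listed gene.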

How the data were processed

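The authors deposited 1 table of MAS5 signal intensity on a linear scale, per the submitters' processing notes and the values themselves. MAS5 summarises each probe set into an arbitrary brightness unit. Deposited columns shared a 2% trimmed mean of 500.3, which hides any change in total mRNA. No detection calls were used here, so dim signal could not be told from background. Signals were brought to the common trimmed mean, 66 control probe sets were set aside, and the brightest 60% of probe sets by mean (at least 134.7) were tested on log2(signal + 16), a scale that understates changes of low signals. The fit was limma 3.58.1 in R 4.3.3 (lmFit, eBayes with intensity trend, group only, two-sided, Benjamini-Hochberg over all 7453 probe sets), checked on simulated data. The dim Egr1 value comes from a fit without the filter. The number of arrays limits precision.

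Names came from the platform annotation: 10855 probe sets had 1 symbol, 396 several and 1237 none here; 10839 matched RefSeq by Entrez ID and no symbol changed. A listed gene was represented by its brightest tested probe set. The members and lists were chosen with earlier results of these data known. Named were all member probe sets, 13 preset regulators, partners and targets where measured, the 3 genes of smallest p in each list, and those most like each member (5 by r over all arrays; 3 by r of deviations from group means for the Egr genes). All 6 interneuron markers were named as well. Alternatives were quantile normalization, deposited values unscaled, a pseudocount of 1 or of 64, testing every probe set or the brightest 40%, a replicate block, each array left out, no intensity trend, a threshold of 0.10, and averaging the probe sets of a gene.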

Additional observations from a re-analysis of the deposited data

How the results depend on the processing

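The tested Egr1, Egr2, Nab2 and Nab1 probe sets were lower in deprived cortex under all 14 alternatives run for them, with log2 changes of -1.19 to -1.09 for Egr1, -1.65 to -1.47 for Egr2, -0.52 to -0.35 for Nab2 and -0.43 to -0.05 for Nab1. These repeats use the contrast that chose the members and add no support. The dim Egr1 probe set ranged from -0.86 to 0.19 and changed sign without deprived replicate 2. The count of probe sets past the threshold, 13, ranged from 7 to 10 with an array left out: non-deprived replicate 2 left out gave 7, and 8 passed when either array numbered replicate 3 was dropped. In the other alternatives it ranged from 9 with no filter to 14 at a threshold of 0.10. No listed regulator, partner or target passed under any of 15 alternatives. The median log2 change of the SRF, TCF and CREB regulators moved to 0.04 with the brightest 40% of probe sets, against -0.06, and that of the NuRD and other partners to 0.12 without non-deprived replicate 1, against 0.01. With the replicate number as a block, 10 probe sets passed, and log2 changes of the members were the same by construction. Deviations of same-numbered arrays from their group means correlated at 0.00, 0.05 and -0.02, so the arrays were not treated as pairs, and arrays did not all correlate best with their own number. The groups are opposite sides of the cortex and may still share mice, since the animals behind each array are not given. These correlations cannot settle that. With 3 arrays a group and no detection calls, changes of dim probe sets are poorly resolved.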

Other observations

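Several regulators and relatives of the Egr genes were measured only by dim probe sets, under the mean signal asked for testing and not shown to be above background. Wt1, a zinc-finger factor that binds sites like those of Egr1, had a mean signal of 118 and a log2 change of -0.30 (SE 0.38). Creb1 had 3 probe sets with mean signals of 79.9 to 106 and log2 changes of 0.11 (SE 0.38), 0.60 (SE 0.40) and 0.37 (SE 0.49). The TCF genes Elk3 and Elk4 had log2 changes of 0.25 (SE 0.46) and -0.68 (SE 0.39). Crem, a CREB relative induced by activity, had -0.23 (SE 0.29) on its tested probe set and -0.75 (SE 0.52) on a dim one. The dim reported Egr targets went both ways: Vegfa had 0.84 (SE 0.40) at a mean signal of 115, Icam1 -0.70 (SE 0.45), Tnf -0.01 (SE 0.34) and Tgfb1 0.02 (SE 0.29), and the 3 Cd44 probe sets 0.18 (SE 0.45), -0.22 (SE 0.55) and -0.38 (SE 0.27). Apart from Wt1 and Creb1, the genes of this paragraph are named after their values were seen.

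With the group means taken out, the probe sets most like that of Egr1 over the 6 arrays were Cbfb (r = 0.99), Cirbp (0.98) and Nudcd2 (0.98), and those most like Egr2 were Ogfr, Minpp1 and Gp1bb (r = 1.00 each after rounding). Of 6715 candidates, 45 had r over 0.95 with Egr1 and 37 with Egr2 on these deviations. With 6 arrays and the group means taken out, unrelated probe sets can reach such r among this many candidates. No comparison with chance was made, so these names are a description only. None of the 3 most like Egr1 was among the 3 most like Egr2.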
